A study of Mus musculus with 7 samples.

Results

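The mitochondrial ribosomal proteins were followed in Kupffer cells, macrophages that reside in the liver, with and without the endosomal sorting gene Commd10. Members were all rows of the gene table whose symbol starts with Mrpl or Mrps followed by a number, which gave 70 of 10550 genes, 43 with an Mrpl symbol and 27 with an Mrps symbol. GENCODE M21 annotates 78 protein-coding mouse genes with such symbols, and the remainder were not analysed here. The cells were sorted from untreated livers of male C57BL/6 mice aged 8 weeks. All mice carried loxP-flanked Commd10 alleles (Commd10fl/fl). The 4 control libraries came from littermates without a Cre, and the 3 Commd10-deficient libraries from Clec4f+/cre mice, in which a Kupffer cell gene drives the recombinase, so Cre expression and loss of Commd10 cannot be told apart. Sample titles divide the controls into control set 1, made of replicates 1 and 2, and control set 2, made of replicates 3 and 4. Nothing in the labels states that libraries came from separate animals, so p-values measure the spread between libraries, which may be partly technical.

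Mitochondria keep their own ribosome, which makes the few proteins encoded in mitochondrial DNA, all of them subunits of the respiratory chain and ATP synthase. Its RNA comes from the mitochondrial genome, but every one of its proteins is encoded in the nucleus, made in the cytoplasm and imported. Mrpl genes encode large-subunit proteins, which surround the peptidyl transferase centre, and Mrps genes encode small-subunit proteins, which hold the messenger RNA and the decoding centre. Some descend from bacterial ribosomal proteins, and others were added in the mitochondrial lineage.

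The assay counts unique molecules at the 3′ ends of polyadenylated RNA, so a count does not grow with transcript length. Depth differed widely. The control set 1 libraries held 4270240 and 3207144 counts, those of set 2 held 230942 and 267553, and Commd10-deficient replicates 1 to 3 held 116458, 105462 and 124016. Levels are given as counts per 1000000 counts of the library (CPM). At the floor of 3 counts the level is 0.703 CPM where depth was highest and 28.4 CPM where it was lowest. Depth, control set and genotype therefore move together, and their parts in the results were not tested. All 8 Kupffer cell markers listed were detected in every library, with a sum of 27266 to 34436 CPM in controls and 30827 to 33806 CPM in Commd10-deficient libraries. The sum is mostly Clec4f and Cd5l, and 4 of the markers separated the groups. Marco was lower, at 493 to 750 CPM against 1057 to 2738 CPM in controls. Cd163 (1484 to 1830 against 472 to 1061 CPM), Adgre1 (1621 to 2314 against 857 to 1529 CPM) and Vsig4 (2346 to 3224 against 1130 to 2338 CPM) were higher, and the part of these shifts in the results was not tested. Summed hepatocyte markers lay at 3048 to 5775 CPM and 3975 to 4902 CPM, endothelial markers at 546 to 773 CPM and 575 to 661 CPM, and monocyte markers at 212 to 1028 CPM and 265 to 515 CPM, in the same order. Neutrophil markers were at 8.66 to 34.3 CPM in controls and 28.4 to 169 CPM in Commd10-deficient libraries, and the part of that difference in the results was not tested. Commd10 itself held 167, 130, 7 and 1 counts in controls and 0, 4 and 2 in Commd10-deficient libraries. The labels do not say which exons are flanked, so a 3′ tag need not report the deletion, and counts this low check the genotype of none of the shallow libraries.

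Transcripts of both subunits made up a smaller part of the Commd10-deficient libraries. The 43 Mrpl genes together reached 3043, 3548, 3789 and 4104 CPM in control replicates 1 to 4, and 2379, 2124 and 2887 CPM in Commd10-deficient replicates 1 to 3. The 27 Mrps genes together reached 1464, 1490, 1459 and 1316 CPM in controls and 919, 1100 and 1258 CPM in Commd10-deficient libraries. In neither sum did the groups overlap. The Mrpl mean fell from 3621 ± 447 (SD, n = 4) to 2463 ± 388 CPM (SD, n = 3), a ratio of 0.680, and the Mrps mean from 1432 ± 78.9 to 1092 ± 170 CPM, a ratio of 0.763. In bulk samples, fewer cells of a type and less RNA per cell cannot be told apart. No p-value is given for these sums, since the members were chosen with results of these data known.

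**Figure D1:**
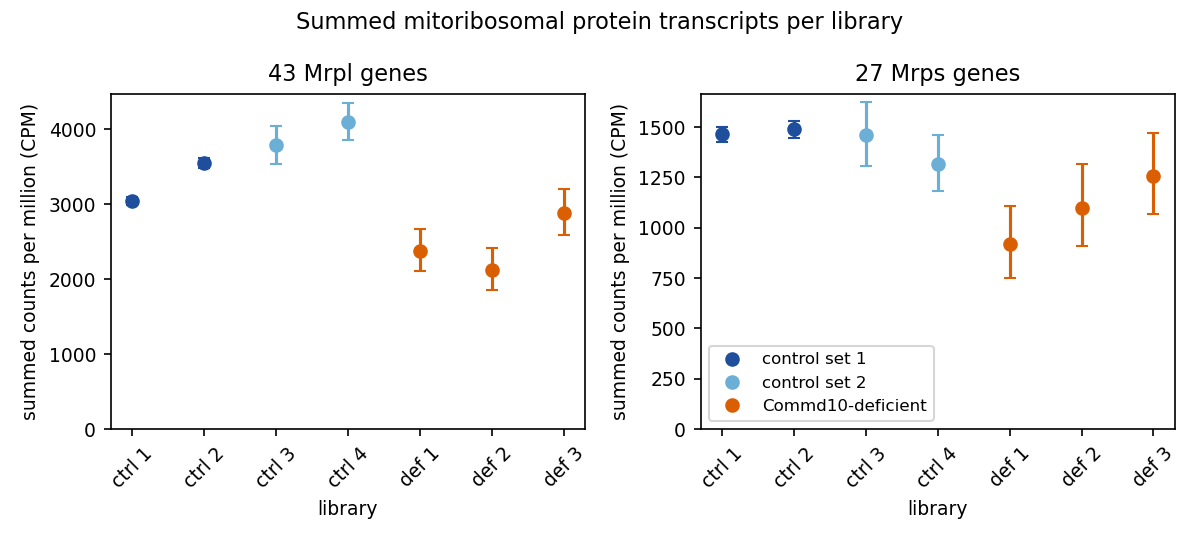
Summed CPM of the 43 Mrpl genes (left) and the 27 Mrps genes (right) in each library, with exact 95% Poisson intervals that cover counting error only. The Commd10-deficient libraries lie at 2124 to 2887 CPM for Mrpl and 919 to 1258 CPM for Mrps, below every control library in both panels.

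With no overlap in either sum, the difference had to be present against each control set, and only its size is described here. The Commd10-deficient libraries together held 859 Mrpl molecules. Set against control set 1 this was a ratio of levels of 0.762, with an exact 95% interval of 0.711 to 0.815 that covers counting error only, and set against control set 2 it was 0.627 (0.578 to 0.680). For the 379 Mrps molecules the ratio was 0.743 to control set 1 (0.669 to 0.823) and 0.793 to control set 2 (0.697 to 0.900). The control sets differed from each other in the Mrpl sum, with both set 1 libraries below both set 2 libraries and a ratio of means of 0.835, while the Mrps sum was 1.06 times as high in set 1 as in set 2. The libraries with the highest Mrpl sums were those of middle depth, which are also those of control set 2. Depth and control set cannot be told apart here, and the part of depth was not tested. Mrpl52 supplied much of that gap. It made up 8.01%, 8.66%, 15.5% and 17.8% of the Mrpl molecules in controls and 6.86%, 6.25% and 6.98% in Commd10-deficient libraries. Without Mrpl52, the ratio of the Mrpl means was 0.728, and without Mrps24, the Mrps gene with the most counts, that of the Mrps means was 0.805.

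The balance between the subunits did not separate the groups. There were 2.08, 2.38, 2.60 and 3.12 Mrpl molecules for each Mrps molecule in controls and 2.59, 1.93 and 2.29 in Commd10-deficient libraries. The means of 2.54 ± 0.438 (SD, n = 4) and 2.27 ± 0.329 (SD, n = 3) lay within the spread of the libraries. Placing genes by where the protein sits in solved structures changed little. Mrps18a and Mrps30 encode large-subunit proteins despite their symbols, and the product of Mrps36 is now assigned to the 2-oxoglutarate dehydrogenase complex. With these moved, 45 large-subunit genes had a ratio of 0.679 and 24 small-subunit genes one of 0.775.

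Members were also divided by origin. This division was made after the counts had been seen, and whether the classes differ in their ratios was not tested. The 17 mitochondrial large-subunit genes summed to 1196 to 1899 CPM in controls and 730 to 1081 CPM in Commd10-deficient libraries, a ratio of means of 0.559, or 0.646 without Mrpl52. The 28 bacterial large-subunit homologues summed to 1996 to 2310 CPM and 1489 to 1879 CPM, a ratio of 0.766. In neither class did the groups overlap. Among small-subunit genes, the 8 mitochondrial ones summed to 294 to 430 CPM and 152 to 223 CPM, a ratio of 0.496, again with no overlap but from 61 molecules in the Commd10-deficient libraries. The 16 bacterial small-subunit homologues overlapped, at 781 to 1084 CPM and 653 to 1032 CPM with a ratio of 0.877. Both mitochondrial classes were also lower in control set 1 than in control set 2. Against set 1 alone the ratios were 0.672 for the large-subunit class and 0.584 for the small-subunit class, and against set 2 alone 0.478 and 0.432. For the bacterial homologues the ratios were 0.781 and 0.811 against set 1, in the same order, and 0.751 and 0.954 against set 2.

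At the level of single genes, 48 of the 70 members had a lower mean CPM in the Commd10-deficient libraries, 30 of them Mrpl and 18 Mrps. That is 68.6% of the members, beside 51.9% of all genes in the table. The mean was below that of both control sets for 38 members (54.3%, beside 31.9% of the table). Among all 70 members, for 17 every Commd10-deficient library lay below every control (background 8.65% of the table), and for 3, Mrpl1, Mrpl4 and Mrpl19, every one lay above (background 8.13%). The sparse genes add little: Mrpl15, Mrpl21 and Mrps36 had no count in any Commd10-deficient library, and a single count there equals 8.06 to 9.48 CPM.

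Raw counts were tested with edgeR's quasi-likelihood test over the 3412 genes that passed its expression filter, about 43.3 CPM in at least 3 libraries. Of the members, 43 passed (27 Mrpl and 16 Mrps). Mrpl28, Mrpl44, Mrpl46, Mrpl48, Mrps12 and Mrps26 lay under the filter value in every Commd10-deficient library and so passed through the controls alone, which means that a tested gene of this kind had to differ in level. After Benjamini-Hochberg adjustment over all tested genes, 1 member fell, Mrpl28, which is one of those 6, and 0 rose, where 6.04% of tested genes were called (2.58% lower and 3.46% higher). At an unadjusted p under 0.05 there were 15 members, 14 of them lower, beside 24.2% of all tested genes and 12% in the lower direction. The fitted log2 fold change was below 0 for 30 of the 43, beside 52.2% of all tested genes, and its median was −0.80 over the members and −0.05 over all genes. In 15 of the 43 every Commd10-deficient library lay below every control and in 1 above, beside 12.2% and 12.6% of all tested genes. These counts include the 6 genes that passed through the controls alone. Without genes that passed through one group alone, a restriction made after the data were seen, 37 members and 3182 genes remained. Of these members 0 were called, 8 were lower at an unadjusted p under 0.05 (21.6%, beside 10.1% of the genes), 24 were fitted below 0 (64.9%, beside 51.3%) and 9 lay below every control (24.3%, beside 10.2%). The median was then −0.52, beside −0.03 over the genes. Some of the 37 members still had most Commd10-deficient libraries under the filter value, such as Mrpl2 at 51.5, 19.0 and 32.3 CPM. Such members still needed the controls to pass, so these shares are not free of the filter.

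The number of members called depended on the setting, and so did the background. It was 4 with DESeq2's size factors (6.8% of tested genes called), 6 with DESeq2 (11%), 0 with limma-voom (5.92%, with 4 members at an unadjusted p under 0.05), 12 with no expression filter (4.87%), of 70 tested, of which only Mrpl19 was higher, and 3 of 63 tested with a lower filter (3.4%). The members called with DESeq2's size factors, with DESeq2 and with the lower filter were all lower. Of those called with DESeq2's size factors, Mrpl28, Mrps12 and Mrps26 had passed the filter through the controls alone. With DESeq2 this held for Mrpl28 and Mrps26. The shares in brackets cover both directions. The number called was 8 of 27 tested against control set 2 alone (31.7%), all of them lower. In that setting 352 of 2202 genes were called lower and 345 higher. Against control set 1 alone the number was 2 of 26 (25.1%), 1 lower and 1 higher. The number was 11 of 43 against the mean of the control sets in a 3-level model that separates them (20.1%), all of them lower. Among these, Mrpl28, Mrpl46, Mrps12 and Mrps26 had passed the filter through the controls alone. In that model 303 of 3412 genes were called lower and 384 higher. With an offset for transcript length and GC content, an alternative chosen after the data were seen, 2 members were called (3.88%). Leaving out Commd10-deficient replicate 1 or replicate 2 left 0 calls in the whole table in place of 206. At an unadjusted p under 0.05 (edgeR) there were then 17 of 50 and 13 of 52 tested members. The share of all tested genes at that level is not given for these fits or for limma-voom, so these member counts have no background. Without Commd10-deficient replicate 3 there were 60 calls in the whole table, with Mrpl30 the only member among them.

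**Figure D2:**
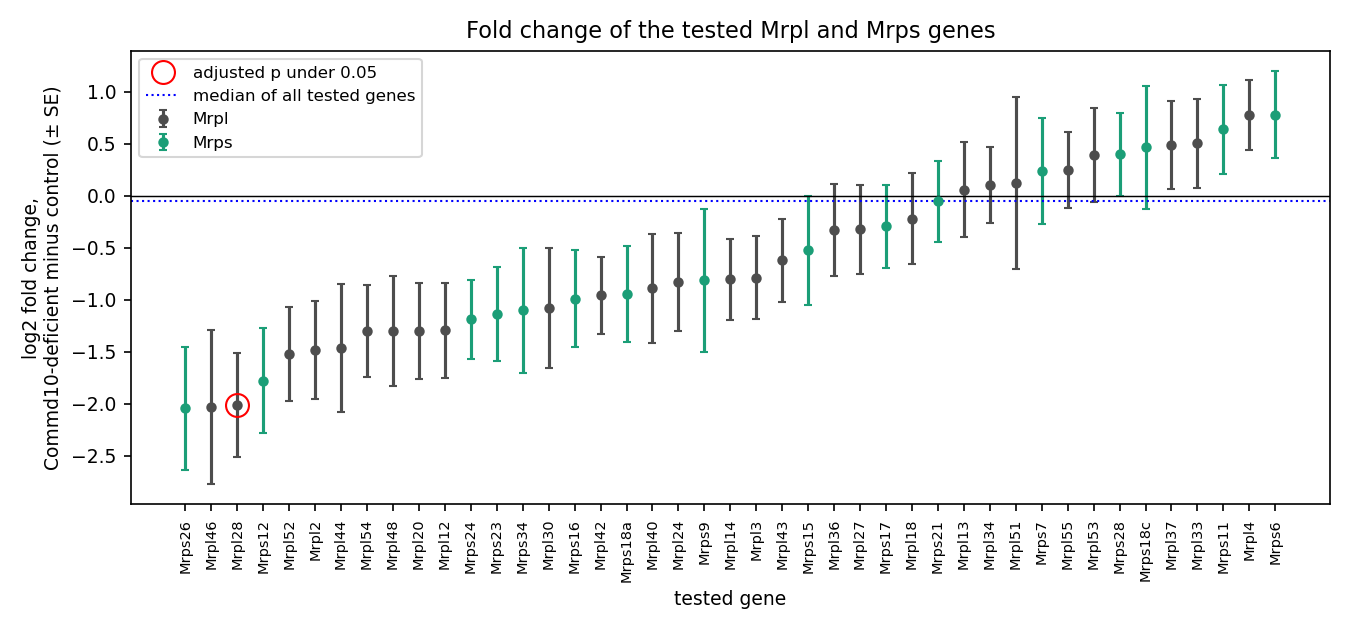
Fitted log2 fold change (points) with standard error (bars) of the 43 tested genes, ordered by value, large-subunit symbols in grey and small-subunit symbols in green. The values run from −2.04 for Mrps26 to 0.78 for Mrps6 and Mrpl4, the dotted line marks the median of all tested genes at −0.05, and the ring marks Mrpl28, the gene with an adjusted p under 0.05.

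Mrpl28, a homologue of a bacterial large-subunit protein (GRCm38 chr17:26123500-26126613, plus strand), had 419, 337, 23 and 19 counts in controls and 1, 3 and 4 in Commd10-deficient libraries. In CPM that was 98.1, 105, 99.6 and 71.0, against 8.59, 28.4 and 32.3. Every Commd10-deficient library lay well under the lowest control, and the control sets were level with each other. The means were 93.5 ± 15.3 (SD, n = 4) and 23.1 ± 12.7 CPM (SD, n = 3), and the log2 fold change was −2.02 ± 0.50 (SE; edgeR adjusted p = 0.0318). In the 3-level model it was −2.03 against control set 1, and the control sets differed from each other by 0.03. The call rests on 8 molecules in the Commd10-deficient libraries, and the gene passed the filter through the controls alone. Leaving out any one of those libraries gave log2 fold changes of −2.40 to −1.66 with adjusted p-values of 0.0592 to 0.162, limma-voom gave −1.92 with 0.135, and the offset for length and GC content gave −1.69 with 0.0714.

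Mrps12 and Mrps26 came next by p-value and are both small-subunit genes that passed the filter through the controls alone. Mrps12, whose bacterial homologue lies at the decoding centre (chr7:28739641-28741820, minus strand), had 77.3, 86.7, 52.0 and 56.1 CPM in controls and 25.8, 9.48 and 24.2 CPM in Commd10-deficient libraries. Its log2 fold change was −1.78 ± 0.51 (SE; edgeR adjusted p = 0.0511). Mrps26, a mitochondrial addition to the small subunit (chr2:130563742-130568695, plus strand), had 67.4, 59.2, 52.0 and 112 CPM in controls and 8.59, 19.0 and 24.2 CPM in Commd10-deficient libraries. The groups did not overlap in either gene. For Mrps26 the log2 fold change was −2.04 ± 0.59 (SE; edgeR adjusted p = 0.0539). An antisense transcript, 4930473A02Rik, overlaps its exons, and the treatment of strand in counting is not given in the sources used here. With DESeq2's size factors in place of the TMM factors, the adjusted p was 0.0432 for Mrps12 and 0.0466 for Mrps26.

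Mrpl52, a mitochondrial large-subunit protein and the member with the most counts (chr14:54426909-54429756, plus strand), had 244, 307, 589 and 729 CPM in controls and 163, 133 and 202 CPM in Commd10-deficient libraries. All 3 Commd10-deficient libraries lay below the controls, but the controls themselves fell into their sets. The log2 fold change was −1.52 ± 0.45 (SE; edgeR adjusted p = 0.0576). In the 3-level model it was −0.62 against control set 1 (adjusted p = 0.127) and −2.11 against control set 2 (adjusted p = 0.000229), and the control sets differed by −1.49 (set 1 minus set 2; adjusted p = 0.00207).

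**Figure D3:**
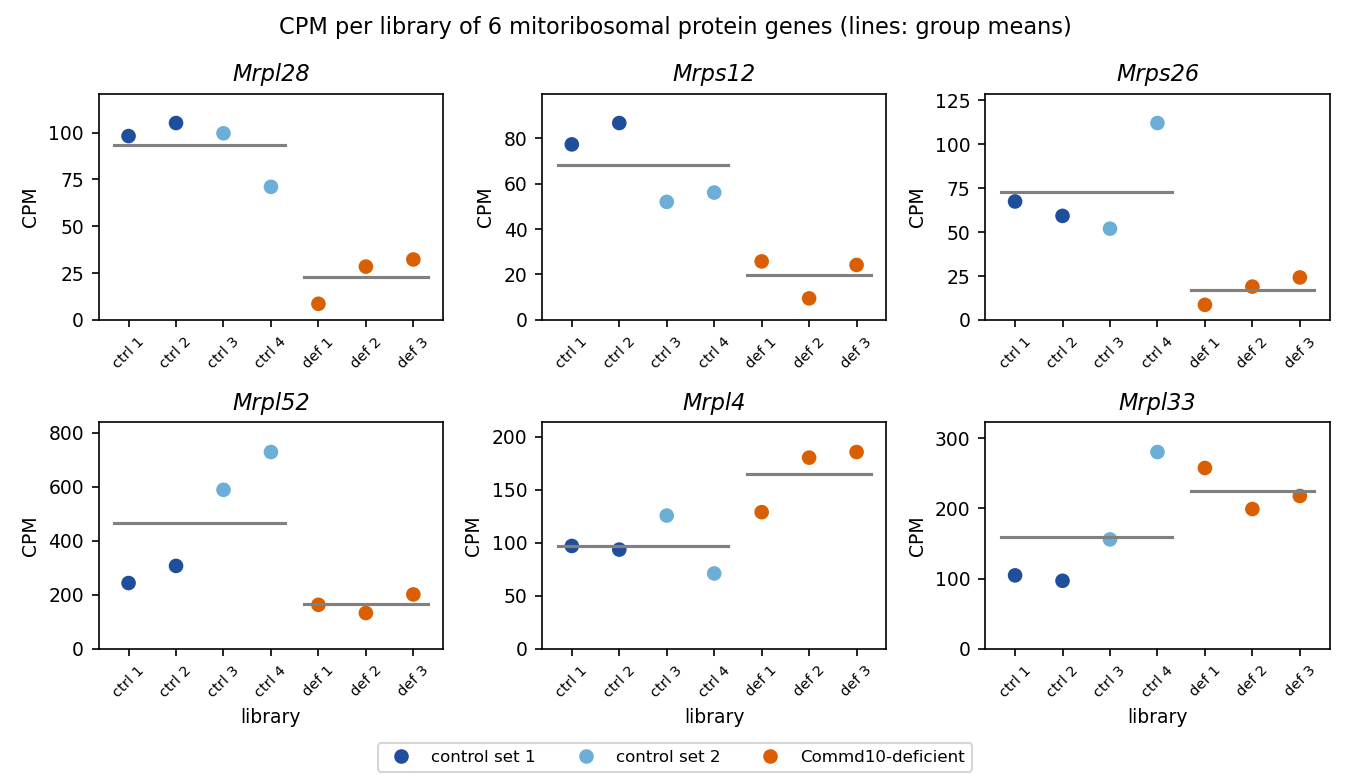
CPM of 6 genes in each library, one panel per gene with its own axis from 0, and group means as lines. Mrpl28, Mrps12 and Mrps26 are lower in each Commd10-deficient library than in each control, Mrpl52 and Mrpl33 separate the control sets, and Mrpl4 is higher at 129 to 185 CPM against 71.0 to 126 CPM.

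The start regions of 3 of these genes are shown so that promoters of members can be compared: Mrpl28, the gene called, Mrps26, which had the lowest fitted fold change, and Mrpl52, which had the most counts. Each line gives the 150 bases before the annotated start, 5′ to 3′ on the gene's strand (all plus), from RefSeq on GRCm38.p6, with the ETS core motif CCGGAAG (read on either strand, here as CTTCCGG) in capitals where it occurs. They come from chr17:26123353-26123502, chr2:130563607-130563756 and chr14:54426759-54426908.
Mrpl28: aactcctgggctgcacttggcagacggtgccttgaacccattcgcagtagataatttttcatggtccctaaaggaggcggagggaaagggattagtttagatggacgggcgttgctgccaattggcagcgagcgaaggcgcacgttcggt
Mrps26: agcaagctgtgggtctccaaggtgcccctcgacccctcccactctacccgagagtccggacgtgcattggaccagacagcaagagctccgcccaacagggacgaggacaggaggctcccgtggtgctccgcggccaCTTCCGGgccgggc
Mrpl52: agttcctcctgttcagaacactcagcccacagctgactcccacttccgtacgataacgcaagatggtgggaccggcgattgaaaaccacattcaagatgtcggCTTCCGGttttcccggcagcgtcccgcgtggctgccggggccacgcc

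ETS family factors and NRF1 are known regulators of nuclear genes for mitochondrial proteins. RefSeq gave 67 promoters for 61 of the members, and each was searched over the 250 bases before the start on both strands. The ETS core CCGGAAG was in 16 of the 67, or 23.9%, beside 15.7% of the promoters of tested genes and 6.91% of all 32851 promoters. The NRF1 motif, GCGCA, any base and then GCGC, was in 11.9%, 8.78% and 3.74% of these, the YY1 motif AAGATGGCG in 2.99%, 1.33% and 0.606%, and the TATA box TATAAA in 7.46%, 6.66% and 12.4%. These are matches of letters and no measure of binding. Mrpl28, the gene called, had none of the 4 motifs in the bases shown, while Mrps26 and Mrpl52 each had an ETS core.

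The remaining large-subunit genes named by the smallest p-values had no overlap between groups and did not pass the adjusted threshold. Mrpl2, the homologue of a bacterial protein next to the peptidyl transferase centre, had a mean of 97.7 ± 15.4 CPM in controls against 34.2 ± 16.4 CPM in Commd10-deficient libraries, with a log2 fold change of −1.49 ± 0.47 (SE; edgeR adjusted p = 0.0674). Mrpl54, a mitochondrial addition, had 163 ± 41.7 and 64.9 ± 42.1 CPM and a log2 fold change of −1.30 (edgeR adjusted p = 0.0858). Mrpl12, the stalk protein that contacts translation factors, had 113 ± 21.6 and 45.0 ± 23.5 CPM and a log2 fold change of −1.30 (edgeR adjusted p = 0.0988). Exons of Gm16755 overlap Mrpl12. The values were −1.11 to −1.24 against set 1 and −1.49 to −1.76 against set 2. Since the groups did not overlap, the shared sign adds no separate evidence.

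The abundant large-subunit genes did not move as one. Mrpl42, a mitochondrial addition, had 183, 269, 217 and 269 CPM in controls and 60.1, 152 and 153 CPM in Commd10-deficient libraries, without overlap, and a log2 fold change of −0.96 (edgeR adjusted p = 0.130). Mrpl34, a bacterial homologue, had 108, 161, 99.6 and 202 CPM in controls and 120, 180 and 161 CPM in Commd10-deficient libraries. Its fitted log2 fold change was 0.10 ± 0.36 (SE), within the spread of the libraries, and it changed sign between settings. Mrpl33, another bacterial homologue, had 105, 97.0, 156 and 280 CPM in controls and 258, 199 and 218 CPM in Commd10-deficient libraries. Its log2 fold change was 1.26 against control set 1 (3-level model, adjusted p = 0.00782) and −0.09 against control set 2 (adjusted p = 0.864), and the control sets differed by −1.35 (set 1 minus set 2; adjusted p = 0.00798). Exons of Gm43809 overlap Mrpl33 on the same strand.

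Among small-subunit genes, Mrps24, a bacterial homologue, had the most counts and the highest mean in controls. It had 136, 156, 186 and 179 CPM in controls and 60.1, 56.9 and 96.8 CPM in Commd10-deficient libraries, with no overlap and a log2 fold change of −1.19 ± 0.38 (SE; edgeR adjusted p = 0.0672). Its exons overlap those of Urgcp on the same strand. Mrps23, a mitochondrial addition, varied little among controls, at 77.6 ± 5.93 CPM, against 35.3 ± 11.6 CPM in Commd10-deficient libraries, and a log2 fold change of −1.14 (edgeR adjusted p = 0.135). Mrps16, a bacterial homologue, had 80.6 ± 13.2 and 39.6 ± 18.0 CPM and a log2 fold change of −0.99 (edgeR adjusted p = 0.212). The other abundant bacterial homologues overlapped between groups: the fitted log2 fold change was −0.05 for Mrps21, −0.52 for Mrps15 and −0.30 for Mrps17, and that of Mrps21 changed sign between settings. Mrps18a, one of the large-subunit proteins with an Mrps symbol, had a log2 fold change of −0.95 (edgeR adjusted p = 0.227), with overlap. Mrps30, the other, was not tested and had 194, 130, 7 and 4 counts in controls and 1, 6 and 3 in Commd10-deficient libraries. Mrps36 had 11, 16, 1 and 0 counts in controls and 0 in each Commd10-deficient library.

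The direction was not shared by all members. Mrpl4, chosen here after its values were seen, encodes a bacterial homologue of the large subunit and had 97.0, 93.5, 126 and 71.0 CPM in controls. The Commd10-deficient libraries had 129, 180 and 185 CPM, above each control. Its log2 fold change was 0.78 ± 0.33 (SE; edgeR unadjusted p = 0.0358, adjusted p = 0.169), and 1.24 with the offset for length and GC content (adjusted p = 0.0496). The tested members are short, with a median annotated transcript length of 865 bases against 1580.5 for all tested genes, while their median GC content, 52.7%, is close to the 52.8% of all tested genes. With that offset the median log2 fold change of the members was −0.61 against −0.01 over all genes, and the members called were Mrps26 (lower) and Mrpl4 (higher).

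The contrasts with each control set share the Commd10-deficient libraries, so their calls are given side by side. Against control set 1, Mrpl28, Mrps12 and Mrps26 fell and Mrpl33 rose, where 19.3% of tested genes were called (7.71% lower). Each member that fell there had passed the filter through the controls alone. Against control set 2, 11 members fell and 0 rose, where 19.1% were called (10.3% lower). Among those that fell, Mrpl28, Mrpl46 and Mrps26 had passed through the controls alone. The median log2 fold change of the members was −0.63 in the first contrast and −0.79 in the second. Both medians include the 6 genes that passed through the controls alone. Between the control sets, which share a genotype, Mrpl27, Mrpl33, Mrpl52 and Mrps34 were lower in set 1 and 0 members were higher, where 18.7% of tested genes were called (10.9% lower). The fitted difference between sets was below 0 for 31 of the 43, beside 52.2% of all tested genes, with a median of −0.36 against −0.05 over all genes.

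Detection of members was compared at equal depth. Thinned in expectation to 105462 counts, the number of members with at least 1 count was 62.4, 63.1, 62.7 and 60.1 in controls and 62.7, 62.0 and 63.0 in Commd10-deficient libraries, so the groups overlapped. The number with at least 3 counts was 50.9, 52.7, 50.9 and 50.1 in controls and 42.6, 41.0 and 48.8 in Commd10-deficient libraries, with no overlap. The same numbers over all genes of the table are not given. The difference therefore has no background and cannot be read as particular to the members.

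Other genes of the mitochondrial translation pathway did not all follow the ribosomal proteins. The 4 further mitoribosomal genes under other symbols were lower, at 364 to 613 CPM in controls and 152 to 355 CPM in Commd10-deficient libraries, and 0 of 3 tested were called. Aurkaip1, a small-subunit protein, had a log2 fold change of −1.47 (edgeR adjusted p = 0.0503), and Ict1, a peptidyl-tRNA hydrolase built into the large subunit, one of −1.21 (edgeR adjusted p = 0.300). The 26 listed genes for ribosome assembly and rRNA processing summed to 732 to 794 CPM in controls and 500 to 692 CPM in Commd10-deficient libraries, a ratio of means of 0.755, with 0 of 6 tested called. Rbfa, a small-subunit assembly factor, had a log2 fold change of −0.91, and Lrpprc, which stabilises mitochondrial messenger RNAs, one of 1.27, neither past the threshold.

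The remaining lists of the pathway overlapped between groups. They rest on few molecules in the Commd10-deficient libraries: 89 for translation factors, 122 for synthetases and 118 for mitochondrial DNA genes. The 12 translation factors summed to 142 to 194 CPM in controls and 145 to 322 CPM in Commd10-deficient libraries, a ratio of 1.50. Tufm, the elongation factor that delivers aminoacyl-tRNA, was the only one tested, with a log2 fold change of 0.36 ± 0.48 (SE). The 16 aminoacyl-tRNA synthetase genes had a ratio of 1.05 and included 1 tested gene, Gatc, at 0.89 (edgeR adjusted p = 0.204), which encodes a subunit of the amidotransferase that completes glutaminyl-tRNA and not a synthetase. The 14 genes for transcription and maintenance of mitochondrial DNA had a ratio of 1.30, and 0 of 3 tested were called. Hsd17b10, a subunit of mitochondrial RNase P, had a log2 fold change of 0.58, and Polg, the mitochondrial DNA polymerase, one of −0.28. Mitochondrially encoded transcripts, including the ribosome's own products, were not analysed here.

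Summed nuclear transcripts for respiratory chain subunits and for cytoplasmic ribosomal proteins were lower too. The list of 78 nuclear-encoded respiratory chain subunits also held those of ATP synthase. It summed to 21665 to 29512 CPM in controls and 16869 to 19618 CPM in Commd10-deficient libraries. The ratio of means was 0.720, or 0.819 with set 1 and 0.642 with set 2 as the reference. Of 71 tested, 7 fell (Cox4i1, Cox5b, Ndufa6, Ndufb10, Ndufs6, Ndufv3 and Uqcr11) and 1 rose (Sdha, a succinate dehydrogenase subunit with no partner made by the mitochondrial ribosome, at 1.23), beside 2.58% and 3.46% of all tested genes, with a median log2 fold change of −0.37. The Sdha call was lost in 11 settings, DESeq2 size factors and limma-voom among them, and those of Ndufs6 and Ndufv3 in 7 each. The 82 cytoplasmic ribosomal protein genes had a ratio of 0.607, or 0.756 with control set 1 as the reference and 0.508 with control set 2. Of 73 tested, 12 fell and 0 rose (background 2.58% and 3.46%), among them Rps20 at −2.17, Rps12 at −1.69 and Rpl32 at −1.39. The median was −0.80 against all controls, −0.38 with set 1 and −1.11 with set 2 as the reference, where the mitochondrial ribosomal proteins had −0.80, −0.63 and −0.79. The mitochondrial values include the 6 genes that passed the filter through the controls alone. Without these genes the median against all controls was −0.52. No such value is given for the cytoplasmic list, so the sizes of the medians cannot be ranked. Counts of genes with many processed pseudogenes, as cytoplasmic ribosomal protein genes have, are uncertain where reads are shared.

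**Figure D4:**
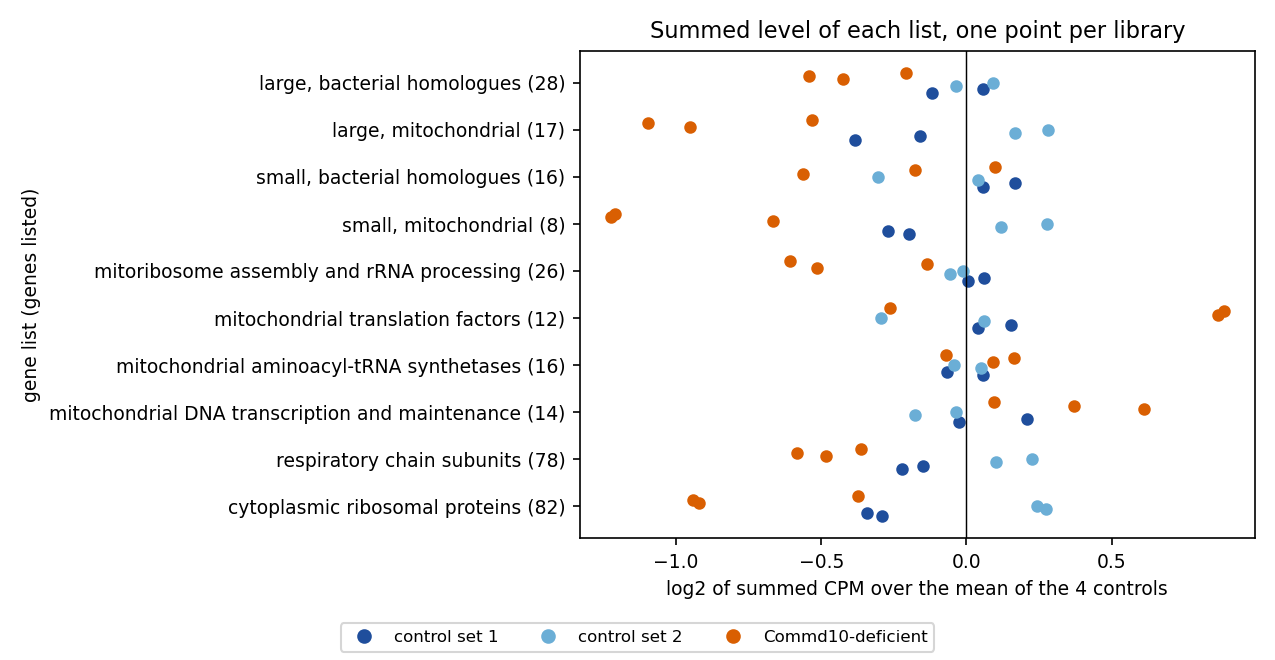
Summed CPM of each gene list in each library, as log2 of its ratio to the mean of the 4 controls, with the number of listed genes in brackets. The Commd10-deficient libraries lie below all controls for the mitochondrial ribosomal classes other than the small-subunit bacterial homologues. They also lie below all controls for assembly, the respiratory chain with ATP synthase, and cytoplasmic ribosomal proteins. They overlap the controls for translation factors, synthetases and mitochondrial DNA genes.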

How the data were processed

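Bulk MARS-seq libraries of about 10000 sorted Kupffer cells each were analysed as 4 control and 3 Commd10-deficient libraries. The authors deposited UMI-corrected raw counts per gene, per the file headers. The deposited normalized signal equals those counts divided by 1 factor per library in all 73850 values (tolerance 0.006) and was not used further. The submitters' processing notes name the build mm10 and the tools cutadapt, HTSeq and DESeq2, with versions, aligner and strand handling not given in the sources used here. The number of unmatched per-sample columns was 0, and of mitochondrially encoded genes listed 0.

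CPM values are counts over the table total. Counts were tested with the quasi-likelihood test of edgeR 4.0.16 (R 4.3.3; TMM factors, robust shrinkage, default expression filter by genotype), with Benjamini-Hochberg adjustment over all tested genes and a threshold of 0.05. A second model had 3 levels, control set 1, control set 2 and Commd10-deficient. The code was tested on simulated data. Intervals on pooled counts are exact at 95% and cover counting error only. Lists are described by counts and medians, without a set test. Positions, exon overlaps, lengths and GC content came from GENCODE M21 (GRCm38), and length and GC were known for 43 of 43 tested members and 96.0% of tested genes.

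Members and lists were chosen with earlier results of these data known. Named genes are the called members, the 5 smallest p-values and 4 highest mean CPM in each of Mrpl and Mrps, Mrps18a, Mrps30 and Mrps36, the called genes or else the 2 smallest p-values of each other list, and Commd10. For the respiratory chain and the cytoplasmic ribosome, values are given for a few. Alternatives were DESeq2 1.42.0 size factors and test, limma-voom (limma 3.58.1), 2 other filters, each control set alone, the 3-level model, leaving out each library, the offset for length and GC content, and leaving out genes that passed the filter through one group alone.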

Additional observations from a re-analysis of the deposited data

Results flagged for a closer look

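In 2 of 66 sets of control values tested, 1 library stood apart by Dixon's criterion for 4 samples, which chance alone would do in about 1 in 20. Aurkaip1, a small-subunit protein of the mitochondrial ribosome, was at 445 CPM in control replicate 4, with the next control at 258 CPM. Rpl32, a cytoplasmic ribosomal protein, was at 2425 CPM in control replicate 3, with the next control at 2142 CPM.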

How the results depend on the processing

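The pooled ratio kept its direction under all alternatives run. It was 0.622 to 0.747 for Mrpl (reported as 0.680) and 0.705 to 0.823 for Mrps (reported as 0.763). Leaving out a library or a control set could not reverse it, because the groups did not overlap in either sum. The Mrpl to Mrps ratio of the groups was 0.831 to 0.966 (reported as 0.893). The calls did not hold as well. The number of genes called in the whole table, 206, was 377 with DESeq2, 514 with no filter, 697 against control set 2 only, 576 against control set 1 only, 687 with the 3-level model and 127 with the offset for length and GC content, and 0 to 276 with 1 library left out. The number of members called, 1, was 4 with DESeq2 size factors, 6 with DESeq2, 0 with limma-voom, 12 with no filter, 3 with the lower filter, 8 against control set 2 only, 2 against control set 1 only, 11 with the 3-level model, 2 with the offset and 0 without genes that passed the filter through one group alone, and 0 to 2 with 1 library left out. The cause was not tested. The median over all genes, −0.05, was −0.12 with DESeq2 size factors. The mean number of members detected at equal depth differed by 0.51 at 1 count or more and by −7.04 at 3 counts or more. Neither has a value over all genes beside it. The number of members called between control sets stayed at 3 to 5.

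The sign of some fitted values changed between settings. Mrpl33, at 0.50 in the main test, was 1.24 against control set 1 only (edgeR adjusted p = 0.00546) and −0.050 against control set 2 only. Mrpl34, at 0.10, was −0.12 with no filter, −0.065 with the lower filter and −0.075 against control set 2 only. With 1 library left out it was −0.069 to 0.33. Mrps21, at −0.05, was 0.018 with limma-voom, 0.19 against control set 1 only and 0.31 with the offset. With 1 library left out it was −0.43 to 0.20. Polg, at −0.28, was 0.14 with the offset and −0.79 to 0.18 with 1 library left out. Tufm, at 0.36, was −0.087 to 0.59 with 1 library left out. Over 45 named genes, 493 of the recomputed values kept direction and side of the threshold, 90 lost the call, 38 gained it and 15 changed sign.

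No paired analysis was possible because the labels give no replicate numbers shared by the groups. The Commd10-deficient libraries held 224 to 358 Mrpl molecules and 107 to 156 Mrps molecules each, so a single member was often read from under 10. Both control sets hold controls only, and the Commd10-deficient libraries are the shallowest, so depth and genotype cannot be told apart.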

Other observations

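The following members were singled out after their values were seen, and are given as values. Mrpl30, a large-subunit protein with a bacterial homologue, was split within a group: the controls had 191, 172, 199 and 198 CPM, and the Commd10-deficient libraries 17.2, 28.4 and 218 CPM. Replicate 3 of the Commd10-deficient libraries also had the highest Mrpl and Mrps sums of its group. Mrpl45, a mitochondrial large-subunit protein known to lie at the peptide exit, did not pass the filter and had 127, 115, 13 and 12 counts in controls and 0, 1 and 1 in Commd10-deficient libraries. Its pooled ratio to the controls was 0.173 (exact 95% interval 0.0208 to 0.630), and it was called lower when no filter was applied.

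In the other direction, Mrps6, a small-subunit bacterial homologue, had 55.7, 80.8, 34.6 and 37.4 CPM in controls and 60.1, 123 and 96.8 CPM in Commd10-deficient libraries, with a log2 fold change of 0.78 (edgeR adjusted p = 0.277). Mrpl19, a large-subunit bacterial homologue, had 7, 2, 0 and 0 counts in controls and 2, 1 and 4 in the far shallower Commd10-deficient libraries, a pooled ratio of 17.9 (exact 95% interval 5.68 to 54.1). Its 7 molecules in the Commd10-deficient libraries make the ratio imprecise, and its counts were under the floor of 3 in control replicates 2 to 4 and in Commd10-deficient replicates 1 and 2.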
